A study of Mus musculus with 8 samples.

Results

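Sarcomere and muscle fibre genes were followed in cultured mouse muscle stem cells, the resident precursors of skeletal muscle. The 46 genes were chosen by name, each has 1 locus among the 55223 loci of the deposited table, and 45 reached a mean of 0.5 TPM (transcripts per 1000000, a length-corrected share of a library) over the 8 libraries, as 16908 loci did. The gene left below that minimum was Mybpc2, the fast-fibre myosin-binding protein C, which was listed at 0 in 5 libraries and stood at 0.32 TPM in the BMP4 culture and 0.318 TPM in the vehicle culture of isolation 54. The study asked how these cells answer a short pulse of a bone morphogenetic protein (BMP), a secreted signalling ligand. The donors were wild-type female mice of the C57BL/6J strain, 6 to 8 weeks old, and their cells grew on Matrigel for 2 days. Serum was then withdrawn for 6 h and BMPR-IA/ALK3-Fc, a receptor fusion that binds BMPs, was added at 200 ng/ml before ligand or vehicle was given for 1 h. The groups were 2 cultures given 100 ng/ml BMP4 and 2 vehicle cultures of the same experiment, and 2 cultures given 100 ng/ml BMP6 and 2 vehicle cultures of that experiment. The vehicle was 4 mM HCl with 0.1% BSA. The labels carry a code for each pair of cultures, read here as 1 isolation of cells: isolations 48 and 54 gave the BMP4 cultures and their vehicles, and isolations 75 and 77 the BMP6 cultures and theirs. Values of a pair of cultures are given below in that order of isolations. Ligand, experiment and isolation therefore cannot be told apart between the experiments, and the 2 libraries of a group differ in isolation.

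Muscle stem cells that start to differentiate leave the cell cycle, switch on the transcription factor myogenin, fuse into myotubes and then assemble sarcomeres. A sarcomere is built from thin filaments of actin, tropomyosin and troponin, thick filaments of myosin, and the titin and nebulin scaffolds that tie both to the Z-disc and the M-band. Developing and regenerating fibres make embryonic and perinatal myosin, cardiac-type actin and the gamma subunit of the acetylcholine receptor before the adult forms, and BMP signals are known to hold myoblasts back from this step.

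The cells carried the markers of their label in all libraries. Pax7, the defining transcription factor of muscle stem cells, lay between 11.1 and 16.9 TPM, and Myod1, the myoblast determination factor, between 422 and 839 TPM. Estimated depth lay between 48012825 and 58002740 reads per library. The immune markers Ptprc, Tyrobp, Adgre1 and Cd52 were listed at 0 in all 8 libraries, while others of the 10 on that list were not, among them Itgam at 10.9 to 17.1 TPM, Laptm5 at 2.93 to 5.76 TPM and Cd68 at 0.919 to 2.01 TPM. The 8 endothelial markers together gave at most 1.87 TPM. The known BMP target Id1 had 349 and 365 TPM in BMP4 cultures against 149 and 100.0 TPM in their vehicles, and 379 and 403 TPM in BMP6 cultures against 103 and 117 TPM in their vehicles (either ligand, limma adjusted p = 0.0212).

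The fibre genes differed more between isolations than between ligand and vehicle. Together they took 0.911% and 3.36% of all TPM in the BMP4 cultures, against 0.982% and 3.39% in the vehicle cultures of the same isolations. In the BMP6 cultures the share was 0.205% and 0.248%, against 0.180% and 0.255% in their vehicles. Each stimulated culture thus lay close to its own vehicle, and isolation 54 held the highest share and isolations 75 and 77 the lowest. Ranked by the mean of both cultures on the log2(TPM + 0.5) scale, 37 of the 45 genes had the order 54, 48, 77, 75, and 6 more (Tnni2, Mybpc1, Ttn, Xirp1, Ckm and Chrng) differed from it only in the order of 75 and 77. The exceptions were Myoz1, a Z-disc protein of fast fibres, and Casq1, the fast-fibre calsequestrin, whose level in isolation 48 was below that of 1 or both of the low isolations. The order of the isolations by the median gene was the same after median-of-ratios scaling. In bulk RNA, fewer cells of a type and less RNA per cell cannot be told apart.

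**Figure D1:**
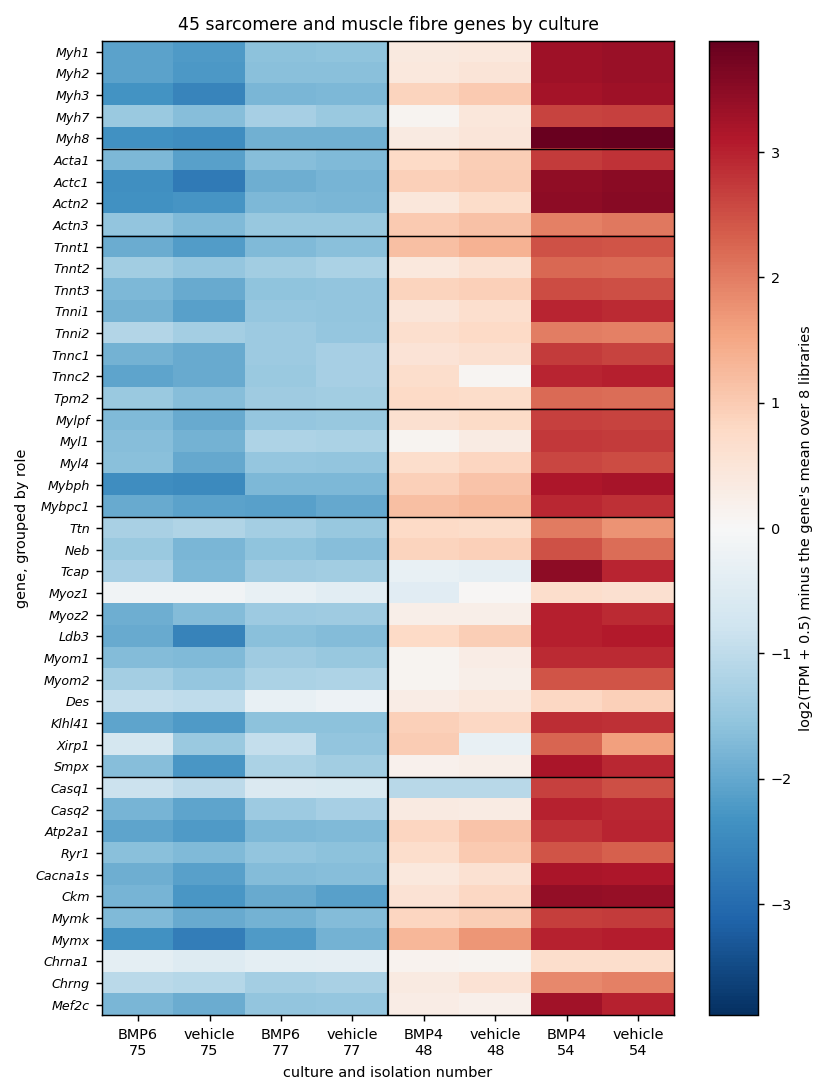
Each row is 1 of the 45 genes, grouped by role, and each column 1 culture with its isolation number; colour is log2(TPM + 0.5) minus the gene's mean over the 8 libraries. The 4 columns of isolations 75 and 77 are blue in nearly every row, those of isolation 54 are the darkest red, and a stimulated culture resembles the vehicle culture beside it.

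Isolation 54 exceeded isolation 48 for every one of the 45 genes, in BMP4 cultures and in vehicle cultures alike. The median ratio was 4.59 in BMP4 cultures, with a range of 1.42 for Des to 15.5 for Tcap, and 4.15 in vehicle cultures, with a range of 1.43 for Des to 13.8 for Casq1. Isolations 77 and 75 lay closer together: the median ratio was 1.2 in BMP6 cultures and 1.41 in vehicle cultures. Isolation 77 was still the higher for 35 genes in BMP6 cultures and 40 in vehicle cultures, against 44.2% and 45.4% of all loci. Over all 16908 loci, 46.9% were higher in isolation 54 than in 48 in BMP4 cultures and 42.3% in vehicle cultures, and 5.18% and 4.31% were higher by at least 1 on the log2 scale.

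Promoter sequences are shown for 6 genes picked after their values were seen: both sarcomeric actins, the embryonic heavy chain Myh3, the light chain Mylpf, and 2 acetylcholine receptor subunits that differ in how far their levels spread. Symbols of 35 of the 45 genes matched the RefSeq promoter table (build GRCm38.p6), in 41 windows, and the 250 bases before each start were searched on both strands. Capitals mark an E-box (CANNTG, the motif that myogenin and MyoD bind), the CArG box bound by serum response factor, or the MCAT motif CATTCC bound by TEAD factors. The windows are chr8:123894776-123895025, minus strand, for Acta1, chr2:114052876-114053125, minus strand, for Actc1, chr11:67078050-67078299, plus strand, for Myh3, chr7:127211358-127211607, plus strand, for Mylpf, chr1:87205561-87205810, plus strand, for Chrng, and chr2:73580339-73580588, minus strand, for Chrna1.
Acta1: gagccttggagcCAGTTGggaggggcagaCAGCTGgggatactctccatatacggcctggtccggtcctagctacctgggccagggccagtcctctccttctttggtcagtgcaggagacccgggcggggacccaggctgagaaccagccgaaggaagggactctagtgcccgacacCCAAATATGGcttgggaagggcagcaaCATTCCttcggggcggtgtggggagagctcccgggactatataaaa
Actc1: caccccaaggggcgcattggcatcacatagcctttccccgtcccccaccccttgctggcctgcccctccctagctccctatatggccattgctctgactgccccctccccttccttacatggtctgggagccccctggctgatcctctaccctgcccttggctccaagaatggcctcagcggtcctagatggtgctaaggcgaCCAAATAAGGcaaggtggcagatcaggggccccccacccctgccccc
Myh3: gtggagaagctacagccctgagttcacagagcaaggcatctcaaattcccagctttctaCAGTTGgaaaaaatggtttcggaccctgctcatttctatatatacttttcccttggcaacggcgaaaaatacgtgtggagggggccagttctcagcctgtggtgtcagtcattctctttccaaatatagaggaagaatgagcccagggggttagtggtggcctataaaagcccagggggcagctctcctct
Mylpf: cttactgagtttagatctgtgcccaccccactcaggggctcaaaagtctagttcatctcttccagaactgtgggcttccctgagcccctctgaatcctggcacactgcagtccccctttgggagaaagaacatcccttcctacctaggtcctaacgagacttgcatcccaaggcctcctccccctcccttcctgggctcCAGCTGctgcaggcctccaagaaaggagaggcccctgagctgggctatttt
Chrng: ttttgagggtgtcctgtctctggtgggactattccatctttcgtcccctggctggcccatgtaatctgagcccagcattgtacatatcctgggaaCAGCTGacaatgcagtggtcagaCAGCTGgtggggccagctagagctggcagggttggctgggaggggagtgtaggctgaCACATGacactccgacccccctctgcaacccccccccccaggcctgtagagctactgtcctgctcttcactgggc
Chrna1: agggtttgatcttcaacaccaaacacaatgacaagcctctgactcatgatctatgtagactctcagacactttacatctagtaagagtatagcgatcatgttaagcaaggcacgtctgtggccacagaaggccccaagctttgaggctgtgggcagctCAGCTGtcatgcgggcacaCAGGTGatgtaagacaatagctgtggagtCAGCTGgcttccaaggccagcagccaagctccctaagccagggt
Chrng holds 2 copies of the E-box CAGCTG, at 155 and 132 bases before the start, and Chrna1 holds 2, at 92 and 44 bases, beside a CAGGTG at 73 bases. Acta1 holds a CArG box 73 bases and a MCAT motif 46 bases before its start, and Actc1 a CArG box at 47 bases.

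Over all 41 windows, the E-box form CAGCTG stood in 18 (43.9%), against 13.0% of the 32851 windows of the whole table. The MEF2 motif stood in 3 windows (7.32%), those of Ttn, Myoz2 and Klhl41, against 0.508% of the table, and the CArG box in 5 (12.2%), those of Acta1, Actc1, Ldb3 and Myom1, against 1.47%. The 2 windows of Ldb3 overlap, as do those of Tnni1 and of Myh7, so a site can be counted in both. By gene, CAGCTG stood in 17 of 35 and the CArG box in 4 of 35. The motif CATTCC stood in 22% of the windows against 12.6% of the table, any CANNTG in 78.0% against 66.2%, and CACCTG in 22% against 17.2%. The GC-rich GGCGCC, a sequence in BMP-responsive elements, stood in 1 window, that of Des (2.44%), against 9.59%. CAGCTG and CACCTG are forms of CANNTG and are counted in it. These are matches of letters, not binding sites, and no test was made of them.

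The vehicle cultures compare the isolations without any ligand. In the vehicles of the BMP6 experiment all 45 genes were lower than in the vehicles of the BMP4 experiment, with a median log2 change of -3.33, while the median over all 16908 loci was -0.01. By limma on log2(TPM + 0.5) with Benjamini-Hochberg adjustment over all loci, 29 of the 45 genes passed an adjusted p of 0.05, all 29 lower, where 27.2% of all loci passed and 16.6% passed as lower. The 2 groups of vehicle libraries did not overlap for 44 of the 45 genes, against 38.8% of all loci with that direction. Taken over all cultures, the 4 libraries of isolations 75 and 77 lay below all 4 of isolations 48 and 54 for 43 genes, all but Myoz1 and Casq1, against 29.7% of loci. There were only 2 isolations a side, and the p-values use a spread pooled over all 4 groups. That spread counts the stimulated and vehicle culture of 1 isolation as independent libraries, although they moved together. With the 2 cultures of each isolation averaged first, 25 of the 45 genes and 2274 of the 16908 loci passed. Without the vehicle library of isolation 75, or without that of isolation 77, no gene passed, and 12 (0.071%) and 5 (0.0296%) of all loci did. Without the vehicle library of isolation 54, 2 genes and 2.48% of all loci passed. Without the BMP6 library of isolation 75 or of 77, 14 genes passed in each case, beside 12.1% and 12.3% of all loci. With no filter on low values, 13 genes and 7.84% of loci passed. Leaving out both libraries of an isolation, an alternative added after the values were seen, gave 45 genes and 48.6% of all loci without 48, 42 genes and 22.3% without 54, and no gene and 0.0% of loci without 75 or without 77. With isolation as a random effect, 42 genes and 27.0% of all loci passed.

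**Figure D2:**
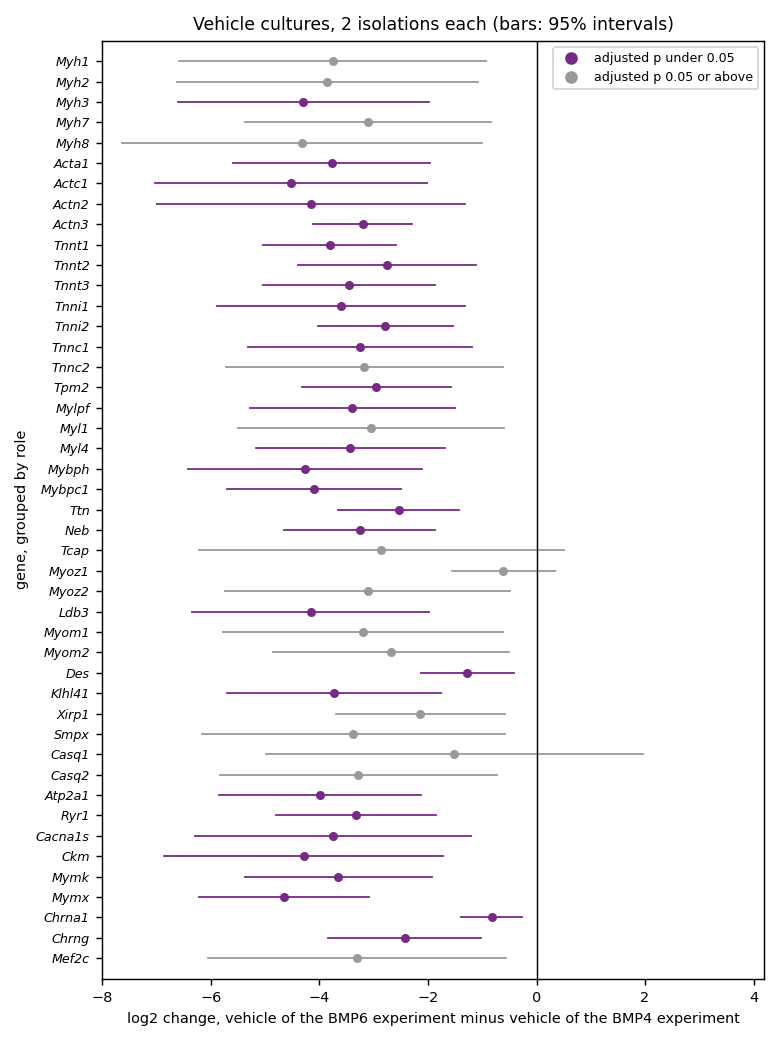
Points are log2 changes of 45 genes, vehicle cultures of the BMP6 experiment minus vehicle cultures of the BMP4 experiment (2 libraries each), with 95% intervals as bars; purple marks an adjusted p under 0.05. All 45 points lie below 0, from -4.65 for Mymx to -0.61 for Myoz1, and the intervals of Tcap, Myoz1 and Casq1 cross 0.

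Of the 5 myosin heavy chains, the motors of the thick filament, 1 passed the test, Myh3. That is near the share of all loci, of which 16.6% passed as lower. Myh3, the embryonic form, had 37.2 and 66.0 TPM in vehicles of the BMP6 experiment against 447 and 2163 TPM in vehicles of the BMP4 experiment (log2 change -4.30 ± 0.96 SE, adjusted p = 0.0261). The 4 other chains had log2 changes between -4.32 and -3.10. Myh8, the perinatal form, had 4.10 and 6.27 TPM in BMP6-experiment vehicles against 33.5 and 367 TPM in BMP4-experiment vehicles, the widest gap of the 5 between isolations 48 and 54 (-4.32 ± 1.38, adjusted p = 0.0595). Myh1 and Myh2, the chains of adult fast fibres, and Myh7, the slow and cardiac chain, had log2 changes of -3.76, -3.86 and -3.10, with adjusted p of 0.0569, 0.0504 and 0.0529. Their intervals left out 0 before adjustment, and a p just above the threshold does not show that they differ from Myh3. Myh1, Myh2, Myh3 and Myh8 lie in 1 cluster on chromosome 11 and are near-identical over long stretches, so their separate TPM are uncertain.

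All 4 actin and actinin genes fell in the vehicles of the BMP6 experiment. Acta1, the skeletal alpha-actin and the gene with the highest mean TPM over the 8 libraries, although Des was higher in all 4 cultures of isolations 75 and 77, had 199 and 263 TPM in vehicles of the BMP6 experiment against 1655 and 5977 TPM in vehicles of the BMP4 experiment (-3.78 ± 0.75, adjusted p = 0.0205). Actc1, the alpha-actin of heart and developing skeletal muscle, had 48.3 and 92.9 TPM in BMP6-experiment vehicles against 650.2 and 3731 TPM in BMP4-experiment vehicles (-4.53 ± 1.04, adjusted p = 0.0278). The actinins crosslink actin at the Z-disc, and they differed in how the high isolations split. Actn2 had 5.35 and 7.88 TPM in BMP6-experiment vehicles against 46.2 and 332 TPM in BMP4-experiment vehicles (-4.15 ± 1.18, adjusted p = 0.0442). Actn3, the fast-fibre form, had 35.5 and 41.7 TPM in BMP6-experiment vehicles against 261 and 492 TPM in BMP4-experiment vehicles and had the smallest SE of the group (-3.20 ± 0.38, adjusted p = 0.00741). Each of the 4 passed the test, where 16.6% of all loci passed as lower. The groups of vehicle libraries did not overlap for any of the 4, against 38.8% of all loci with that direction. The actin pair shares long identical stretches, so its split is uncertain.

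The 8 troponin and tropomyosin genes make thin filaments respond to calcium. All were lower in vehicles of the BMP6 experiment, and 7 passed the test, beside 16.6% of all loci that passed as lower. The troponin T genes encode the tropomyosin-binding subunit. Tnnt3, the fast form, had 67.2 and 90.8 TPM in vehicles of the BMP6 experiment against 499.6 and 1489 TPM in vehicles of the BMP4 experiment (-3.46 ± 0.66, adjusted p = 0.0186). Tnnt1, the slow form, had 38.9 and 56.9 TPM in BMP6-experiment vehicles against 455 and 981 TPM in BMP4-experiment vehicles, the largest change of the 8 (-3.81 ± 0.51, adjusted p = 0.00901). Tnnt2, the cardiac and embryonic form, had 73.1 and 87.2 TPM in BMP6-experiment vehicles against 310.3 and 953 TPM in BMP4-experiment vehicles (-2.76 ± 0.68, adjusted p = 0.0326). Inhibitory and calcium-binding subunits were lower as well. Tnni1, the slow troponin I, had 33.9 and 50.3 TPM in BMP6-experiment vehicles against 234 and 1105 TPM in BMP4-experiment vehicles (-3.61, adjusted p = 0.0377). Tnni2, the fast troponin I, had 33.2 and 28.7 TPM in BMP6-experiment vehicles against 142 and 328 TPM in BMP4-experiment vehicles (-2.79, adjusted p = 0.0177). Tnnc1, the slow and cardiac troponin C, had 47.3 and 75.8 TPM in BMP6-experiment vehicles against 285 and 1156 TPM in BMP4-experiment vehicles (-3.25, adjusted p = 0.0380). Tpm2, the beta-tropomyosin, was the remaining call, while the fast troponin C was not. Tpm2 had 78.6 and 95.5 TPM in BMP6-experiment vehicles against 409 and 1106 TPM in BMP4-experiment vehicles (-2.95, adjusted p = 0.0195). Tnnc2 had 15.5 and 24.8 TPM in BMP6-experiment vehicles against 65.1 and 499 TPM in BMP4-experiment vehicles (-3.17 ± 1.06, adjusted p = 0.0668).

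All 5 measured light chain and myosin-binding genes were lower, and 4 passed the test, where 16.6% of all loci passed as lower. Mylpf, the fast regulatory light chain, had 134 and 189 TPM in BMP6-experiment vehicles against 876 and 3209.6 TPM in BMP4-experiment vehicles (-3.39 ± 0.78, adjusted p = 0.0280). Myl4, the embryonic and atrial light chain, had 45.6 and 62.7 TPM in BMP6-experiment vehicles against 323 and 1049 TPM in BMP4-experiment vehicles (-3.43 ± 0.72, adjusted p = 0.0229). Both were lower in each vehicle of the BMP6 experiment than in either vehicle of the BMP4 experiment, as 38.8% of all loci were. Mybph, a myosin-binding protein H, had 14.2 and 23.7 TPM in BMP6-experiment vehicles against 176 and 752 TPM in BMP4-experiment vehicles (-4.27 ± 0.90, adjusted p = 0.0225). Mybpc1, the slow myosin-binding protein C, had 4.29 and 4.59 TPM in BMP6-experiment vehicles against 48.5 and 145 TPM in BMP4-experiment vehicles (-4.10 ± 0.67, adjusted p = 0.0132). Myl1, the fast essential light chain, had 49.8 and 76.1 TPM in BMP6-experiment vehicles against 222 and 1184 TPM in BMP4-experiment vehicles and did not pass (-3.05 ± 1.02, adjusted p = 0.0664).

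All 12 scaffold genes were lower, and 5 passed the test, where 16.6% of all loci passed as lower. Des encodes desmin, the intermediate filament that myoblasts already make, and it had the smallest change of the 5: 412 and 709.7 TPM in vehicles of the BMP6 experiment against 1094 and 1561 TPM in vehicles of the BMP4 experiment (-1.27 ± 0.35, adjusted p = 0.0424). Ldb3, a Z-disc linker, had 3.11 and 6.27 TPM in BMP6-experiment vehicles against 41.6 and 185 TPM in BMP4-experiment vehicles (-4.16 ± 0.91, adjusted p = 0.0246). Ttn, the titin spring, had 11.2 and 9.01 TPM in BMP6-experiment vehicles against 42.4 and 87.4 TPM in BMP4-experiment vehicles (-2.54 ± 0.46, adjusted p = 0.0170). Titin and nebulin, the longest of these transcripts, had the narrowest intervals of the 5 after desmin. Neb, the nebulin ruler of thin filaments, had 6.51 and 7.26 TPM in BMP6-experiment vehicles against 45.2 and 109 TPM in BMP4-experiment vehicles (-3.26 ± 0.58, adjusted p = 0.0159). Klhl41, a kelch protein that stabilises nebulin, had 9.10 and 14.3 TPM in BMP6-experiment vehicles against 77.7 and 323 TPM in BMP4-experiment vehicles (-3.73 ± 0.82, adjusted p = 0.0252). The 7 that did not pass had log2 changes from -3.38 for Smpx to -0.61 for Myoz1. Myoz1 was low throughout, with 0.706 and 0.5 TPM in BMP6-experiment vehicles against 0.875 and 1.55 TPM in BMP4-experiment vehicles.

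All 6 genes for calcium handling, excitation and energy supply were lower, and 4 passed the test, where 16.6% of all loci passed as lower. Atp2a1, the fast-fibre calcium pump SERCA1, had 14.5 and 20.8 TPM in BMP6-experiment vehicles against 149 and 539.9 TPM in BMP4-experiment vehicles (-3.99 ± 0.78, adjusted p = 0.0195). Ckm, the muscle creatine kinase, had 2.21 and 2.48 TPM in BMP6-experiment vehicles against 22.4 and 135 TPM in BMP4-experiment vehicles (-4.29 ± 1.07, adjusted p = 0.0333). The calcium release channel and its voltage sensor were both called. Ryr1, the release channel, had 3.89 and 4.26 TPM in BMP6-experiment vehicles against 29.1 and 71.3 TPM in BMP4-experiment vehicles (-3.33 ± 0.61, adjusted p = 0.0174). Cacna1s, the voltage sensor, had 0.887 and 1.40 TPM in BMP6-experiment vehicles against 8.52 and 52.6 TPM in BMP4-experiment vehicles (-3.75 ± 1.06, adjusted p = 0.0436). The calsequestrins, which store calcium, did not pass. Casq2 had 9.27 and 15.8 TPM in BMP6-experiment vehicles against 49.5 and 305 TPM in BMP4-experiment vehicles (-3.29 ± 1.06, adjusted p = 0.0611). Casq1 had 3.09 and 4.25 TPM in BMP6-experiment vehicles against 2.92 and 40.4 TPM in BMP4-experiment vehicles, so that its value in isolation 48 lay below both low isolations (-1.52 ± 1.45, adjusted p = 0.438). Without the vehicle library of isolation 54, its change was 0.27.

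All 5 fusion, receptor and transcription factor genes were lower, and 4 passed the test, where 16.6% of all loci passed as lower. Mymk encodes the fusogen myomaker, and it had 37.2 and 45.5 TPM in vehicles of the BMP6 experiment against 284 and 963 TPM in vehicles of the BMP4 experiment (-3.65 ± 0.72, adjusted p = 0.0197). Mymx, the partner fusogen myomixer, had 8.26 and 15.5 TPM in BMP6-experiment vehicles against 186 and 471 TPM in BMP4-experiment vehicles, the largest change of all 45 genes (-4.65 ± 0.65, adjusted p = 0.00980). The receptor subunits had smaller log2 changes. Chrng, the fetal gamma subunit, had 28.8 and 25.9 TPM in BMP6-experiment vehicles against 91.5 and 244 TPM in BMP4-experiment vehicles (-2.43 ± 0.59, adjusted p = 0.0313). Chrna1, the alpha subunit present in fetal and adult receptors, had 236 and 263 TPM in BMP6-experiment vehicles against 363 and 536 TPM in BMP4-experiment vehicles (-0.82 ± 0.23, adjusted p = 0.0444). Chrna1 had the smallest SE of the 5 and Mef2c the largest. Mef2c, a MADS-box partner of the myogenic factors, had 1.59 and 2.27 TPM in BMP6-experiment vehicles against 8.61 and 62.4 TPM in BMP4-experiment vehicles (-3.32 ± 1.14, adjusted p = 0.0711).

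**Figure D3:**
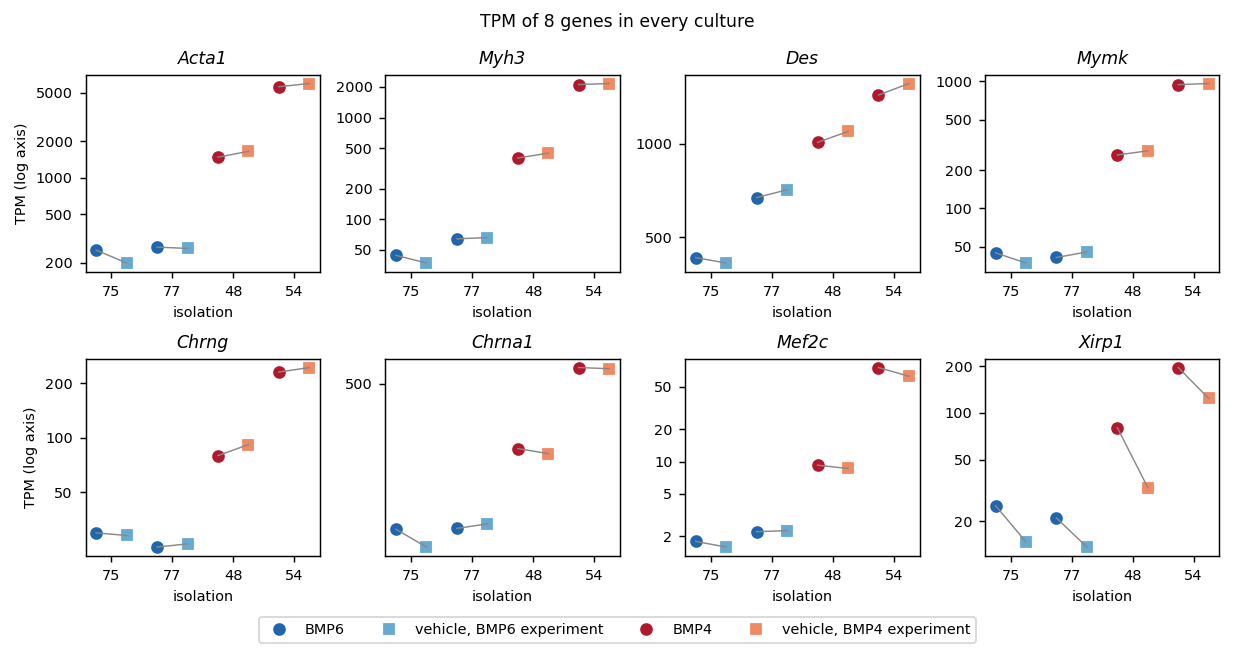
TPM of 8 genes on a log axis (the range differs between panels) in every culture, by isolation; circles are stimulated cultures, squares vehicle cultures, and a line joins the 2 cultures of an isolation. In each panel the 4 values of isolations 75 and 77 lie below the 4 of isolations 48 and 54, as for 29.7% of all loci. Xirp1 is above its vehicle in all 4 isolations.

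Stimulation for 1 h was compared with vehicle, first by the group means, which ignore the pairing of cultures by isolation. No fibre gene passed the test after BMP4 or after BMP6, in the mean of both ligands, or in the difference between them (limma, adjusted p over all loci). Over all loci 0.0237% passed for BMP4, 0.0118% for BMP6, 0.071% for either ligand and 0.0% for the difference. No fibre gene had an unadjusted p under 0.05 in these 4 comparisons, and voom on estimated reads called none. The gap between isolations enters the spread of that fit, so it could miss large changes. Its median 95% interval reached 2.07 to each side on the log2 scale for BMP4 and for BMP6, against 0.21 with isolation as a block. With isolation as a block, again no gene passed in any of the 4, where 0.633%, 0.148%, 0.674% and 0.0% of all loci did, and 4, 4, 1 and 5 of the 45 genes had an unadjusted p under 0.05. The blocked fit with voom called 3 genes for BMP4, all higher (Xirp1, Tcap and Mef2c), 1 for either ligand (Xirp1), and none for BMP6 or the difference. That fit called 6.15% of all loci for BMP4 and 2.05% for either ligand, so 3 of 45 genes is near the share of all loci. In the blocked fit the 95% interval of the log2 change lay within 0.5 of 0 for 40 of 45 genes with BMP4, 38 with BMP6 and 43 with either ligand, so changes above that size are outside the interval for most of them.

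The median log2 change of the 45 genes differed in sign between isolations. After BMP4 it was -0.12 in isolation 48, with 36 genes lower than in vehicle, and 0.02 in isolation 54, with 28 higher. After BMP6 it was 0.18 in isolation 75, with 40 genes higher, and -0.01 in isolation 77, with 25 lower. The median over all 16908 loci lay between -0.03 and 0.01 in the 4 isolations. Of all loci, 44.4%, 48.7%, 51.9% and 47.5% were higher than in vehicle in isolations 48, 54, 75 and 77. In the same order, the median absolute change of the 45 genes was 0.12, 0.06, 0.18 and 0.05. Over all loci it was 0.13, 0.12, 0.07 and 0.08. Most of the genes lay on 1 side of vehicle in isolations 48 and 75, and they split both ways in isolations 54 and 77. Myh2, Myh7, Myh8, Acta1, Actn3 and Ldb3 were lower with BMP4 and higher with BMP6 in both isolations of each, a pattern that 9.41% of all loci showed, and the blocked test of the difference passed for none of them. Acta1 had the lowest adjusted p of that test among the 45 (log2 difference 0.32 ± 0.11 SE, adjusted p = 0.356), with 255 and 269.6 TPM in BMP6 cultures against 199 and 263 TPM in their vehicles, and 1481 and 5627 TPM in BMP4 cultures against 1655 and 5977 TPM in theirs.

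Xirp1 stood apart from the other fibre genes after stimulation. It encodes Xin, an actin-binding repeat protein of myotendinous junctions and of damaged or remodelling fibres, at chr9:119842821-119852664 (GRCm39, minus strand). In BMP4 cultures it had 80.3 and 196 TPM against 33.0 and 124 TPM in their vehicles, log2 changes of 1.27 and 0.66. In BMP6 cultures it had 25.2 and 21.0 TPM against 14.7 and 13.6 TPM in their vehicles, log2 changes of 0.76 and 0.60. It was the 1 gene of 45 that was higher with ligand in all 4 isolations (8.19% of all loci were) and the 1 gene higher by over 0.5 in all 4 (0.39% of all loci). None was lower in all 4, as 9.2% of all loci were. With isolation as a block the change was 0.97 ± 0.15 for BMP4 (SE, adjusted p = 0.0798), 0.68 ± 0.15 for BMP6 (adjusted p = 0.484) and 0.82 ± 0.10 for either ligand (95% interval 0.56 to 1.09, adjusted p = 0.0675), so it missed the threshold. It passed for BMP4 with voom and the block (adjusted p = 0.0161) and without isolation 54 (0.0318), and for either ligand with voom (0.0195) and without isolation 48 (0.0274) or 54 (0.0168). In the blocked fits 0.574% of all loci passed for BMP4 and 0.704% for either ligand without isolation 54, and 1.14% for either ligand without isolation 48. Over the 30 settings run its adjusted p for BMP4 ran from 0.0161 to 1, and over 28 for either ligand from 0.0168 to 1. The BMP6 response minus the BMP4 response was -0.28 ± 0.21 (adjusted p = 0.589).

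**Figure D4:**
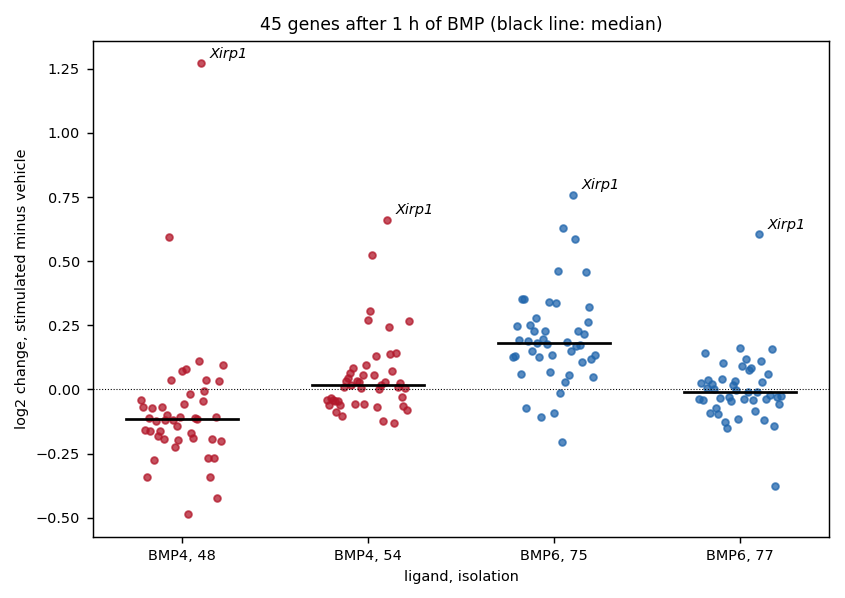
Points are log2 changes of 45 genes, stimulated minus vehicle culture of the same isolation, with the median as a black line (-0.12, 0.02, 0.18 and -0.01). Xirp1 is the highest point in each of the 4 isolations, between 0.60 and 1.27.

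Beyond 0.5 on the log2 scale lay 2, 2, 3 and 1 of the 45 genes in isolations 48, 54, 75 and 77, Xirp1 included, beside 7.11%, 6.86%, 4.07% and 4.17% of all loci. The 4 genes other than Xirp1 were Tnnc2 in isolation 48, with 98.6 TPM in the BMP4 culture against 65.1 TPM in its vehicle, Tcap in isolation 54, and Ldb3 and Smpx in isolation 75. Tcap, the titin cap protein telethonin, had 3.17 and 49.2 TPM in BMP4 cultures against 2.98 and 34.0 TPM in their vehicles, and 1.31 and 1.19 TPM in BMP6 cultures against 0.815 and 1.23 TPM in theirs. Smpx, a small muscle protein of the cytoskeleton, had 3.53 and 4.92 TPM in BMP6 cultures against 2.19 and 4.52 TPM in their vehicles. In each case the other isolation of that ligand moved by less than 0.5. Mef2c had 9.24 and 75.2 TPM in BMP4 cultures against 8.61 and 62.4 TPM in their vehicles, and 1.80 and 2.21 TPM in BMP6 cultures against 1.59 and 2.27 TPM in theirs (blocked change for BMP4 0.18 ± 0.08, adjusted p = 0.298).

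The mix of isoforms within families also followed isolation. Myh3 made up 76.5% and 66.6% of the summed TPM of the 5 heavy chains in BMP4 cultures, against 77.5% and 66.5% in their vehicles, and 68.5% and 69.0% in BMP6 cultures against 66.7% and 69.4% in theirs. The share of Myh8 was 5.92% and 11.2% in BMP4 cultures against 5.81% and 11.3% in their vehicles, so isolation 54 held more of the perinatal form. The embryonic chain led in every culture. Actn3 took 59.0% of the actinin pair in isolation 54 with BMP4 and 59.7% with vehicle, and between 83.9% and 88.9% in the other 6 cultures. Acta1 took 60.9% of the actin pair in isolation 54 with BMP4 and 61.6% with vehicle, and 80.5% in both cultures of isolation 75. Tnni2, the fast troponin I, took 22.3% of its pair in isolation 54 with BMP4 and 22.9% with vehicle, and 47.7% in isolation 75 with BMP6 and 49.5% with vehicle. Casq1 took 5.41% of the calsequestrin pair in isolation 48 with BMP4 and 5.57% with vehicle, and between 21.2% and 25.0% in isolations 75 and 77. Stimulated and vehicle culture of 1 isolation stayed close in these shares, and the widest gap within an isolation was that of Tnnc2 in isolation 48, whose share of troponin C was 27.0% with BMP4 and 18.6% with vehicle. These shares are descriptions over 4 isolations, with no test.

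**Figure D5:**
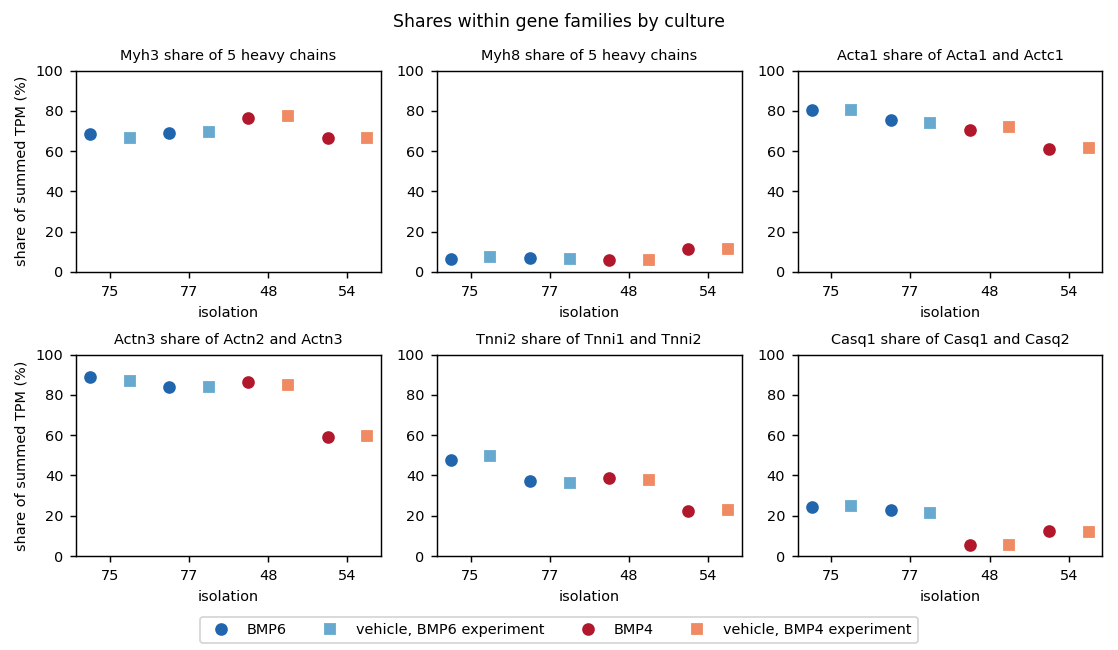
Shares of summed TPM of 6 genes within their families (axis from 0 to 100%) for each culture, by isolation. Myh3 and Myh8 are shares of the same heavy chain sum. Circles are stimulated and squares vehicle cultures. The 2 cultures of an isolation lie together, and isolation 54 has the lowest shares of Acta1, Actn3 and Tnni2 and the highest of Myh8.

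Of the 45 genes, 20 had 2 or more transcripts with over 10% of their TPM, and in 15 the leading transcript was not the same in all 8 libraries. Myom1, the M-band crosslinker myomesin, was assigned to a transcript of 37 exons by 91.8% to 98.3% in isolations 48 and 54 and by 0% in isolations 75 and 77, where a transcript of 38 exons took 100%. The deposited coverage of the added exon (294 bases, chr17:71389198-71389491, GRCm39) showed no matching switch, but it was low in isolations 75 and 77. In the vehicle cultures of isolations 75 and 77 it was 12.2% and 5.20% of the mean of the 4 nearest shared exons, against 21.0% and 6.12% in the vehicle cultures of isolations 48 and 54. It was 18.0% and 19.8% in BMP6 cultures and 12% and 4.90% in BMP4 cultures. In isolations 75 and 77 the exon's own coverage was 0.167 to 0.667, beside 2.72 to 3.36 for the shared exons. The percentages there rest on few reads. For Cacna1s the share of the leading transcript, of 43 exons, ran from 90.5% to 97.9% in isolations 48 and 54 and from 0% to 5.39% in isolations 75 and 77. Its added exon of 57 bases (chr1:136032308-136032364) had 77.9% and 18.1% of the coverage of its neighbours in vehicles of the BMP6 experiment, against 21.7% and 32.5% in vehicles of the BMP4 experiment, where the exon's own coverage in isolations 75 and 77 was at most 1.72. It had 16.3% and 12.2% in BMP6 cultures and 34.0% and 29.6% in BMP4 cultures. The last exon of the short 45-exon Ttn transcript (6520 bases, chr2:76744288-76750807) had 91.7% to 109.5% of the coverage of its neighbours in the 8 cultures. The single-exon transcript of Xirp1 took 40.3% and 40.0% in BMP4 cultures against 31.8% and 27.9% in their vehicles, and 29.9% and 29.9% in BMP6 cultures against 27.3% and 29.7% in theirs. This check of exon coverage was added after the values were seen.

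Of 87 other muscle fibre genes, 81 were measured, with a median log2 change of -2.41. In vehicles of the BMP6 experiment 41 passed as lower and none as higher, beside 16.6% lower and 10.6% higher among all loci. Tpm3, a slow-type tropomyosin, had 248 and 245 TPM in BMP6-experiment vehicles against 169 and 99.2 TPM in BMP4-experiment vehicles and did not pass (0.92, adjusted p = 0.0791). Ankrd1, a titin-associated ankyrin repeat protein, had 289 and 457 TPM in BMP6-experiment vehicles against 161 and 286 TPM in BMP4-experiment vehicles and did not pass either (0.76, adjusted p = 0.138). Both were picked after their values were seen. Among those that were lower, Unc45b, a myosin chaperone, changed by -4.54, Hspb3, a small heat shock protein, by -4.08, and Myom3, a myomesin, by -3.93 on the log2 scale. Of 19 measured myogenic regulators, 9 passed as lower and 2 as higher. Myog, which encodes myogenin, had 109.6 and 143 TPM in vehicles of the BMP6 experiment against 1301 and 2154 TPM in vehicles of the BMP4 experiment (-3.74 ± 0.33, adjusted p = 0.00486). The inhibitors of the cell cycle Cdkn1c (-4.07) and Cdkn1a (-2.0), and Rb1 (-2.23), were lower too. Of 20 proliferation genes, Ccnb2 passed as lower (-0.65) and none passed as higher, while the median log2 change of the list was 0.27.

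Markers of other cell types moved with the fibre genes in part. Over all loci, 16.6% passed as lower and 10.6% as higher in vehicles of the BMP6 experiment, the shares beside each count of this paragraph. Of 15 smooth muscle and pericyte markers, 12 were measured and 9 passed as lower in vehicles of the BMP6 experiment. The summed level of the list was 109 to 115 TPM in those vehicles, against 992 to 1923 TPM in vehicles of the BMP4 experiment. Acta2, the smooth muscle actin that early muscle cells also make, had 52.5 and 59.3 TPM in BMP6-experiment vehicles against 719 and 1395 TPM in BMP4-experiment vehicles. Cnn1 stayed at or below 0.72 TPM and Myh11 at or below 1.49 TPM, but other markers of the list were present. Tagln had 11.5 and 8.23 TPM in BMP6-experiment vehicles against 75.9 and 147 TPM in BMP4-experiment vehicles. In the same order, Notch3 had 7.69 and 4.27 TPM against 41.0 and 55.0 TPM. Pdgfrb had 0.294 and 0.266 TPM against 4.07 and 10.4 TPM. Of 14 genes listed as fibroblast markers, 8 were measured, and 6 passed as lower and 1 as higher. The 6 include Tcf4, with 13.8 and 15.7 TPM in BMP6-experiment vehicles against 21.0 and 23.9 TPM in BMP4-experiment vehicles, which is not specific to fibroblasts. The higher one is Cd34, which is also on the list of muscle stem cell markers below. The sum of the list was 111 to 126 TPM in BMP6-experiment vehicles against 416 to 847 TPM in BMP4-experiment vehicles. Pdgfra stayed at or below 0.354 TPM in all libraries, but not all fibroblast markers were that low. Col1a2 had 13.2 and 28.6 TPM in BMP6-experiment vehicles against 187 and 471 TPM in BMP4-experiment vehicles. Of 8 tendon markers 4 were measured and 1 passed as lower (Fmod, -3.17). Their sums were 124 to 315 TPM in BMP6-experiment vehicles against 160 to 322 TPM in BMP4-experiment vehicles. Of 13 cardiac markers 2 were measured and none passed, with sums of 0.635 to 0.779 TPM in BMP6-experiment vehicles against 3.33 to 14.3 TPM in BMP4-experiment vehicles, and Mybpc3, Hand2, Myl7 and Nkx2-5 were listed at 0 throughout. None of the 3 measured immune or 7 measured Schwann cell markers passed, with sums of 19.8 to 22.8 TPM in BMP6-experiment vehicles against 20.4 to 23.1 TPM in BMP4-experiment vehicles for the immune list and 21.9 to 31.9 TPM in BMP6-experiment vehicles against 13.5 to 24.8 TPM in BMP4-experiment vehicles for the Schwann cell list. Of the adipocyte list only Pparg was measured, and it was higher (0.81), while Adipoq, Lep and Cidec were listed at 0. Of 13 measured surface and quiescence markers of muscle stem cells, 5 passed as lower, among them Heyl (-4.60) and Cdh15 (-2.23). As higher, 3 passed, among them Cd34 (3.36) and Sdc4 (3.17). The part of such cells in the difference between isolations was not tested.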

How the data were processed

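Strand-specific libraries of poly(A) RNA from 8 cultures were read from 1 end over 50 nt, as the labels' protocols state. The submitters' processing notes list StringTie 2.2.1, STAR 2.7.11a and SAMtools 1.17. The authors deposited TPM per locus in a joint table, and per-library tables with TPM, FPKM and mean read coverage, a signal not scaled by depth. TPM of the joint table equalled those of the per-library tables within 1e-05 for all 55223 loci. TPM are not counts and reads shared by near-identical genes may be split between them, so the separate levels of paralogs are uncertain. Depth was estimated as coverage times length divided by the read length.

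Loci whose mean TPM reached 0.5 were tested with limma 3.58.1 (R 4.3.3) with a trend on log2(TPM + 0.5), with 4 group means over all libraries, two-sided, with Benjamini-Hochberg adjustment over 16908 loci and a threshold of 0.05. Fold changes on this scale understate the change of low genes. The labels do not say that isolations are separate animals, so the p-values reflect the spread of these libraries alone, which may be technical. Stimulated and vehicle cultures carry the same isolation code, read from the labels. Deviations from the group means of same-isolation cultures correlated at 0.707 (48 and 54) and 0.455 (75 and 77) over all tested loci. Over the fibre genes they correlated at 0.962 and 0.809, so the 2 cultures of an isolation are not independent. A fit with isolation as a block was run beside the first. The scripts were tested on simulated data whose isolation effects were smaller than the gap between isolations 54 and 48 for most fibre genes. That test does not show how the fits behave for these genes. Genes given in full were those called in any comparison, the most abundant and the most changed gene of each role, and Myh3, Myh8, Acta1, Actc1, Ttn, Mymk, Mymx, Chrng, Mef2c and Des. Members and lists were chosen with earlier results of these data known. Tables and figures used Python 3.11.15, pandas 2.3.3 and matplotlib 3.10.9.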

Additional observations from a re-analysis of the deposited data

How the results depend on the processing

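Between the vehicles, 29 genes passed. The count was 13 (7.84% of loci) with no filter on low values and 0 to 42 when 1 library was left out: 0 without either vehicle library of the BMP6 experiment (0.071% and 0.0296% of loci), 2 without the vehicle library of isolation 54 (2.48%) and 14 without either BMP6 library (12.1% and 12.3%). In alternatives added after seeing the data, dropping both libraries of isolation 48 gave 45 (48.6% of loci), dropping those of 54 gave 42 (22.3%), and dropping those of 75 or of 77 gave 0 (0.0%). The cause was not tested. With the replicate block and voom, 3 genes passed for BMP4 (6.15% of loci) and 1 for either ligand (2.05%). With the block and without isolation 54, 1 passed for BMP4 (0.574%) and 1 for either ligand (0.704%), and without isolation 48, 1 passed for either ligand (1.14%). In the comparisons of ligand with vehicle the block changed no other call. Between the vehicles no fixed block can be fitted because isolations lie within experiments; isolation as a random effect gave 42 genes (27.0% of loci). Direction reversed for Casq1 between the vehicles without the vehicle library of isolation 54 or without both libraries of that isolation (0.27 in each; its range with 1 library left out was -3.31 to 0.27), and for the Xirp1 difference between ligands without the BMP4 library of isolation 54 (0.36), without the vehicle library of isolation 48 (0.66) and without isolation 48 (0.021, with or without the block), over a range of -1.23 to 0.66 with 1 library left out. Without the block, leaving out 1 library unpairs an isolation, and the median change of the 45 genes then ran from -1.13 to 1.05 for BMP4 and from -0.10 to 0.32 for BMP6. With 2 libraries a group, small changes of low genes are not detectable.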
